A study of Rattus norvegicus with 15 samples.

Results

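Fatty acid synthesis genes are described here through 4 rat genes, each taken from the count table by its Ensembl identifier through a rule that names genes and uses no measured value: Fasn (ENSRNOG00000045636), Scd (ENSRNOG00000013552), Acaca (ENSRNOG00000034013) and Srebf1 (ENSRNOG00000003463). They are 4 of the 34480 rows of the table and 4 of the 15543 genes with enough reads to be tested, so none of them was lost to the filter on low counts. The set was proposed with earlier results of these data known, so counts of members called are description only. RNA sequencing was done on 15 libraries of mesenchymal stem cells (plastic-adherent stromal cells) cultured from the bone marrow of Sprague-Dawley rats (an outbred strain). All cultures were first grown to confluence or beyond in growth medium. The 5 groups had 3 libraries each: Control (untreated), Adi (adipogenic differentiation medium), Adi_ASA (adipogenic medium with aspirin), Ost (osteogenic differentiation medium) and Ost_ASA (osteogenic medium with aspirin). Aspirin, acetylsalicylic acid, inhibits the cyclooxygenases. The sources used here do not give its dose, the time in culture, the age or sex of the rats, or whether each replicate was its own animal or only its own dish. A difference from Control can therefore include time in culture, and the p-values describe spread that may be technical. The libraries held 18373289 to 22817858 counted reads.

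Fatty acids are built in the cytosol from acetyl-CoA. Acetyl-CoA carboxylase alpha, the product of Acaca, makes malonyl-CoA and is the committed step of the pathway. Fatty acid synthase, a large multifunctional enzyme encoded by Fasn, uses malonyl-CoA to extend the chain to palmitate. Stearoyl-CoA desaturase, encoded by Scd, puts a double bond into saturated chains and so makes the oleate and palmitoleate that are favoured for stored triglyceride. Srebf1 encodes SREBP-1, a membrane-bound transcription factor that is cleaved in the Golgi and then activates genes of this pathway in the nucleus. In fat cells the pathway accompanies lipid filling, and Srebf1 was also isolated as a factor of adipocyte determination and differentiation.

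Promoter sequences are shown for Srebf1, the regulator, and Scd, the enzyme whose level differed most between media, which are the genes with an entry to print. They come from the RefSeq promoter table on build GRCr8, which is not the build named for the counts (Rnor_6.0), and 2 of the 4 genes matched an entry there by symbol. Each is the 250 bases before a transcription start, read 5′ to 3′ on the strand of the gene. Capitals mark exact matches to any of 5 motifs searched on both strands: the sterol response element TCACNCCAC, the E-box CACGTG, the CCAAT box CCAAT, the GC box GGGCGG and the nuclear receptor half-site AGGTCA. No match in these windows overlapped another.
Scd, chr1:253231732-253231981, minus strand: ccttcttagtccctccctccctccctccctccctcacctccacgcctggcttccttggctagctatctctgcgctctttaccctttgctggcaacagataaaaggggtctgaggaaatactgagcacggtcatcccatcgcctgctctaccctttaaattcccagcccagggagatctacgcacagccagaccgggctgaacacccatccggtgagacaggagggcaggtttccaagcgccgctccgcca
Srebf1, upstream start, chr10:45529165-45529414, minus strand: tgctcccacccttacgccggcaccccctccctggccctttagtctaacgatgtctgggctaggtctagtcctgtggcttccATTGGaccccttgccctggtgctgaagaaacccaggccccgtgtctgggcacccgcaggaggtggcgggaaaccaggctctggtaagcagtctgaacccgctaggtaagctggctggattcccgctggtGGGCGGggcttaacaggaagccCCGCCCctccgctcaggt
Srebf1, downstream start, chr10:45519011-45519260, minus strand: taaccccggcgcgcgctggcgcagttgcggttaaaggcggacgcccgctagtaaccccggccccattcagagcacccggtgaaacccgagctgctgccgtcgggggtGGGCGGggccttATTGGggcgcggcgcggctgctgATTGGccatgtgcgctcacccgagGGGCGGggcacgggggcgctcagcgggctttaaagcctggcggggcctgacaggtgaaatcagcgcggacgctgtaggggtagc

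The Srebf1 windows differed in their matches. The upstream window had 1 CCAAT box, on the minus strand of the gene, and 2 GC boxes, and the downstream window had 2 CCAAT boxes and 2 GC boxes. No motif matched in the Scd window, which was 58.8% G and C, against 64% and 70.4% in the Srebf1 windows. Among all 33469 promoter windows of this length, 34% held a CCAAT box, 30.5% a GC box, 14.1% the half-site, 5.59% the E-box and 0.974% the sterol response element. The match of letters is a description of these windows only. The counts are per gene, so transcripts from the separate Srebf1 starts, which give the proteins SREBP-1a and SREBP-1c, were counted together.

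The first comparison asked how the pathway stood after adipogenic induction. All 4 genes were higher in Adi than in Control (edgeR adjusted p under 0.05), by far the most for Scd. Across all genes tested, 48.9% passed the same test in this comparison in either direction, and 3810 of 15543 were called higher. The count of 4 is read against these. Percentages of genes called below also cover both directions. The median log2 fold change was 1.52 for the 4 genes and -0.01 for all genes tested. In bulk RNA a change in the share of cells that express a gene and a change in its RNA per cell cannot be told apart. Levels below are CPM, the gene's count brought to a common library size with TMM factors that correct for composition, and are compared between groups and not between genes, whose lengths differ.

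Scd, the desaturase, went from a low level to one of the largest rises of the experiment. Its counts in Control were 123, 137 and 127 reads, or 5.09, 6.4 and 6.07 CPM in replicates 1, 2 and 3. In Adi they were 27493, 32893 and 47097 reads, or 1547, 1807 and 2509 CPM, so a single gene held 0.144% to 0.229% of all counted reads. The groups were far apart, and replicate 3 was the highest of the Adi libraries. The log2 fold change was 8.39 (SE 0.24, edgeR adjusted p = 8.48e-11), a 335-fold rise from 5.85 ± 0.679 to 1954 ± 498 CPM (SD, n = 3). Of the 15543 genes tested, 13 had a larger log2 fold change. Scd has close relatives in the rat genome, among them Scd2, and the sources used here do not say how reads shared with them were counted.

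Srebf1, the transcription factor, rose next most. It stood at 57.3, 51.6 and 53.6 CPM in Control and at 193, 217 and 260 CPM in Adi. The groups did not overlap, and replicate 3 was again the highest of the Adi libraries. This was a log2 fold change of 2.04 (SE 0.12, edgeR adjusted p = 4.25e-09), from 54.2 ± 2.92 to 224 ± 33.8 CPM (SD, n = 3), and 2.33% of genes had a larger one.

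The enzymes of chain synthesis rose less. Fasn was at 231, 198 and 216 CPM in Control and at 409, 396 and 483 CPM in Adi, with no overlap. Its log2 fold change was 1.00 (SE 0.08, edgeR adjusted p = 8.7e-10), which is a doubling from 215 ± 16.5 to 429 ± 46.6 CPM (SD, n = 3). Acaca was at 46.7, 41.8 and 41.5 CPM in Control and at 69.4, 70.3 and 79.3 CPM in Adi, also without overlap. Its log2 fold change was 0.75 (SE 0.07, edgeR adjusted p = 5.68e-09), from 43.3 ± 2.96 to 73.0 ± 5.51 CPM (SD, n = 3). For these genes too Adi replicate 3 was the highest of its group.

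**Figure D1:**
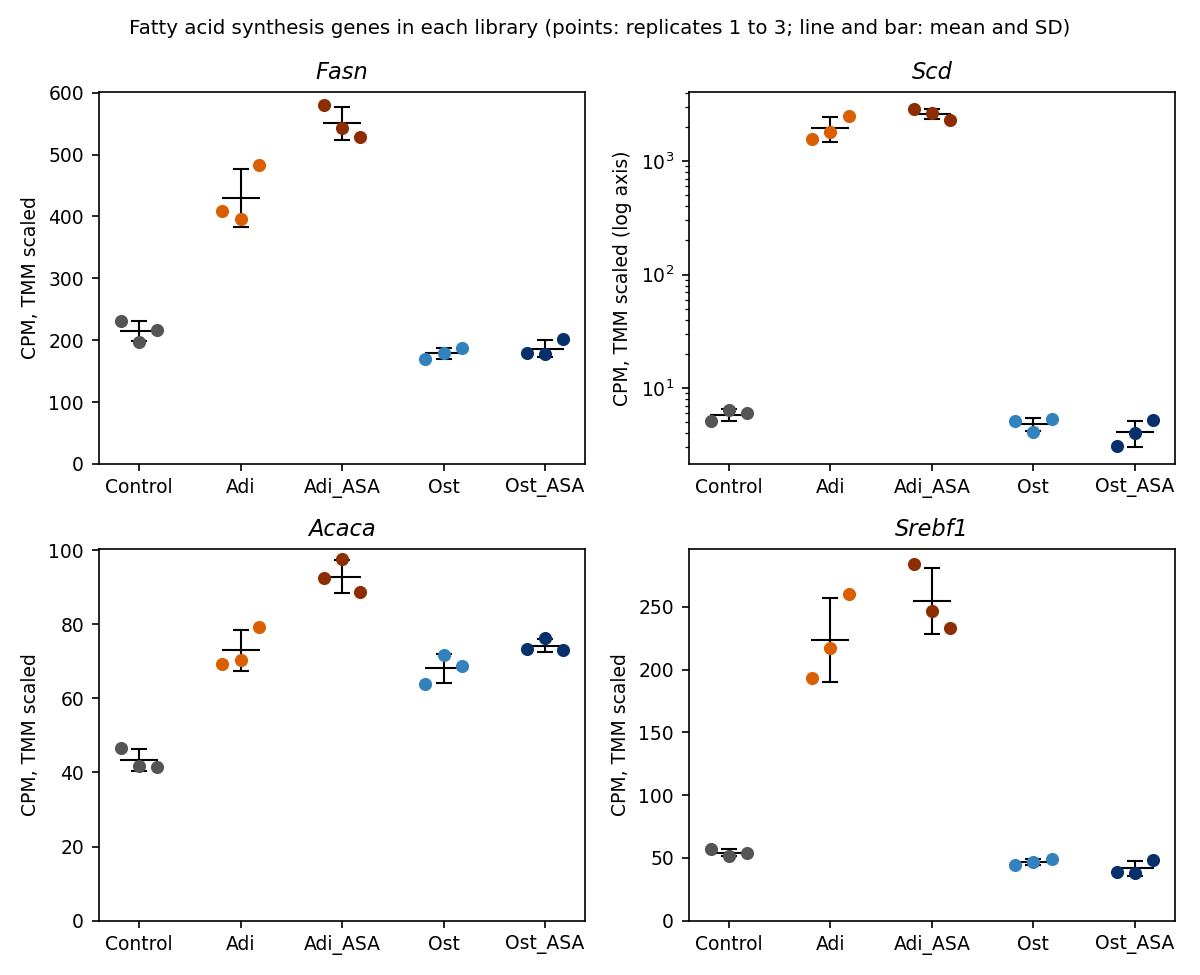
TMM-scaled CPM of Fasn, Scd, Acaca and Srebf1 in each of the 15 libraries by group (points; lines and bars, mean and SD, n = 3), with a log axis for Scd. The Adi libraries of Scd lie between 1547 and 2509 CPM and those of Control between 5.09 and 6.4 CPM, while for Acaca the Control libraries alone lie below the other groups.

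Osteogenic medium was compared with the same Control libraries. Acaca rose and Fasn fell slightly, and Scd and Srebf1 did not pass the test. Of all genes tested, 68.9% were called in this comparison, so 2 of 4 is no more than the background. The median log2 fold change was -0.23 for the 4 genes and -0.02 for all genes tested.

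Acaca reached 64.0, 71.7 and 68.8 CPM in the Ost libraries, all above Control. Its log2 fold change was 0.65 (SE 0.07, edgeR adjusted p = 1.38e-08), from 43.3 ± 2.96 to 68.2 ± 3.91 CPM (SD, n = 3). Fasn was at 170, 179 and 188 CPM in Ost, all below Control, a log2 fold change of -0.26 (SE 0.08, edgeR adjusted p = 0.00449). The enzymes of successive steps of the same chain thus moved in opposite directions in this medium.

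Srebf1 was at 44.2, 46.6 and 49.5 CPM in Ost, against 51.6 to 57.3 CPM in Control. The libraries did not overlap, and the log2 fold change of -0.21 (95% interval -0.47 to 0.04, edgeR adjusted p = 0.124) did not pass the test with the spread estimated over all 5 groups. With only Ost and Control in the model it passed (-0.22, edgeR adjusted p = 0.0057), at an SE of 0.06 against 0.12 in the main model. The cause of this change was not tested. Scd stayed at a low count, with 119, 79 and 120 reads or 5.11, 4.14 and 5.32 CPM in Ost. The Scd libraries overlapped with Control, at a log2 fold change of -0.26 (95% interval -0.85 to 0.34, edgeR adjusted p = 0.424).

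The media were then compared directly. Scd, Srebf1 and Fasn were higher in Adi than in Ost, and Acaca did not pass the test. Of all genes tested, 66.5% were called, and 5129 of 15543 were called higher. The log2 differences, Adi minus Ost, were 8.64 for Scd (SE 0.25, edgeR adjusted p = 1.62e-11), 2.26 for Srebf1 (SE 0.12, adjusted p = 4.55e-10) and 1.26 for Fasn (SE 0.08, adjusted p = 5.34e-12). For Acaca the difference was 0.10 (95% interval -0.04 to 0.23, edgeR adjusted p = 0.182), and the libraries overlapped, at 69.4 to 79.3 CPM in Adi and 64.0 to 71.7 CPM in Ost. With aspirin in both media, all 4 genes were higher in Adi_ASA than in Ost_ASA, where 65.7% of genes were called and 5108 of 15543 were called higher. Here Acaca passed as well, at 0.32 (SE 0.06, edgeR adjusted p = 0.000146), with 88.7 to 97.5 CPM in Adi_ASA and 72.9 to 76.4 CPM in Ost_ASA.

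**Figure D2:**
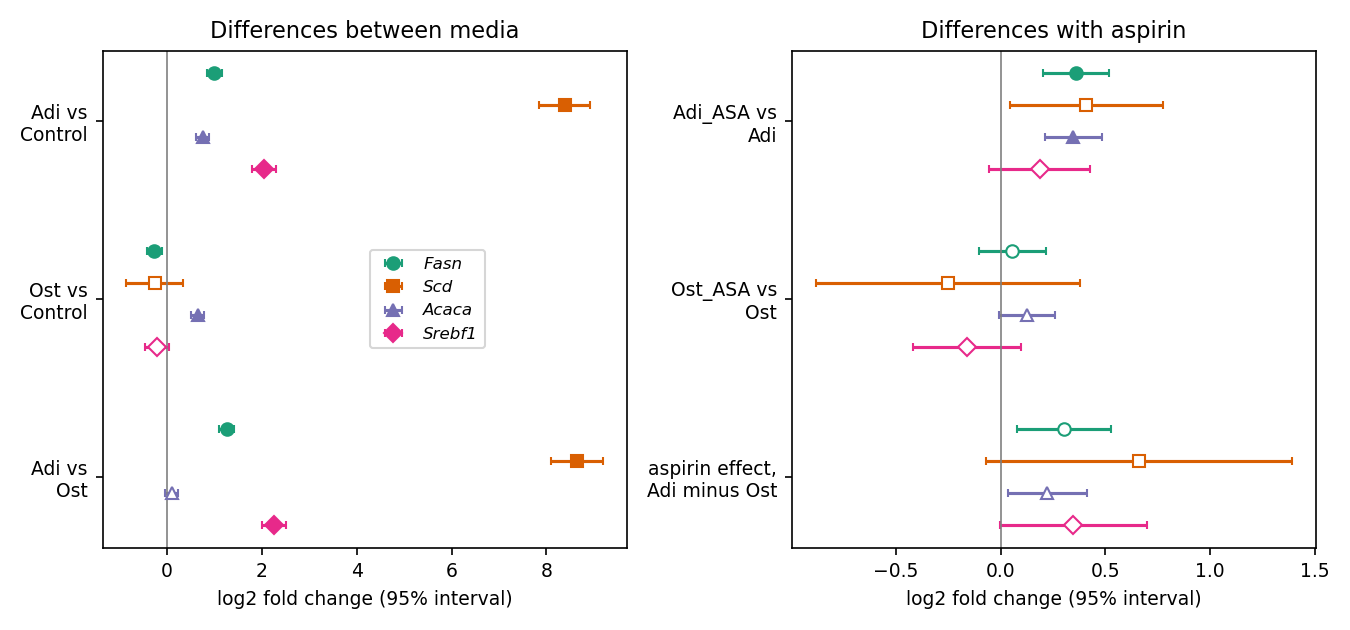
Log2 fold changes with 95% intervals from the edgeR model for each gene, between media (left) and with aspirin (right). Filled symbols passed an adjusted p of 0.05 and open ones did not: in adipogenic medium Fasn (0.36) and Acaca (0.35) are filled, and all 4 genes are open in osteogenic medium and in the difference between media.

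Aspirin was added to adipogenic medium to see how it acts on adipogenic induction. Fasn and Acaca rose further with aspirin, and Scd and Srebf1 had higher means that did not pass the test. No member fell. Of all genes tested, 4.34% were called in this comparison, and 387 of 15543 were called higher, against 2 of these 4 genes. The median log2 fold change was 0.35 for the 4 genes and 0.00 for all genes tested.

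Fasn was at 581, 544 and 529 CPM in the Adi_ASA libraries, against 396 to 483 CPM in Adi, and the groups did not overlap. This was a log2 fold change of 0.36 (SE 0.08, edgeR adjusted p = 0.00777), from 429 ± 46.6 to 551 ± 26.7 CPM (SD, n = 3), or 1.28-fold. Of all genes, 9.44% had a larger one. Without Adi replicate 2 the value was 0.31 and the call was lost (edgeR adjusted p = 0.0506).

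Acaca was at 92.5, 97.5 and 88.7 CPM in Adi_ASA, all above the highest Adi library at 79.3 CPM. Its log2 fold change was 0.35 (SE 0.06, edgeR adjusted p = 0.00302), from 73.0 ± 5.51 to 92.9 ± 4.45 CPM (SD, n = 3), or 1.27-fold. It passed the test in every alternative run.

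Scd was at 2848, 2643 and 2299 CPM in Adi_ASA. The lowest of these lay below Adi replicate 3 at 2509 CPM, so the groups overlapped. Its log2 fold change was 0.41 (95% interval 0.04 to 0.78, unadjusted p = 0.0313 and edgeR adjusted p = 0.23), from 1954 ± 498 to 2597 ± 278 CPM (SD, n = 3). Leaving out 1 library changed this: without Adi replicate 3 the value was 0.63 and passed (edgeR adjusted p = 0.0121).

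Srebf1 was at 284, 246 and 233 CPM in Adi_ASA and at 193 to 260 CPM in Adi, with overlap. The log2 fold change was 0.19 (95% interval -0.05 to 0.43, edgeR adjusted p = 0.437), from 224 ± 33.8 to 254 ± 26.4 CPM (SD, n = 3). A rise as large as that of Fasn lies within this interval.

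TMM factors moved with aspirin in this medium, at 0.911 to 0.945 in Adi and 0.963 to 0.970 in Adi_ASA. On library totals without these factors, an alternative added after seeing the data, the rises were 0.42 for Fasn (edgeR adjusted p = 0.000933) and 0.40 for Acaca (adjusted p = 0.000484), where the median of all genes moved to 0.06. Against Control, all 4 genes were higher in Adi_ASA, where 44.4% of all genes were called and 3502 of 15543 were called higher. The log2 fold changes there were 1.36 for Fasn, 8.80 for Scd, 1.10 for Acaca and 2.23 for Srebf1, beside 1.00, 8.39, 0.75 and 2.04 for Adi, with the Control libraries shared by both sets.

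Aspirin was likewise compared within osteogenic medium. None of the 4 genes passed the edgeR test, and none had an unadjusted p under 0.05 (DESeq2 also called none), where 3.63% of all genes were called. Acaca came closest, at 73.4, 76.4 and 72.9 CPM in Ost_ASA, all above the Ost libraries. How often the libraries of other genes separated with aspirin, in either medium, was not counted. The log2 fold change of Acaca was 0.12 (95% interval -0.01 to 0.26, edgeR adjusted p = 0.389).

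The others overlapped. Fasn was at 179, 178 and 202 CPM in Ost_ASA, a log2 fold change of 0.06 (95% interval -0.10 to 0.22, edgeR adjusted p = 0.814). Srebf1 was at 38.5, 38.3 and 48.5 CPM, a log2 fold change of -0.16 (95% interval -0.42 to 0.09, edgeR adjusted p = 0.605), with replicate 3 among the Ost values. Scd had 69, 86 and 119 reads, or 3.08, 4.0 and 5.21 CPM, and its interval, -0.88 to 0.38, is the widest of the 4 (log2 fold change -0.25, edgeR adjusted p = 0.774).

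Set against Control, the Ost_ASA libraries showed Acaca higher and Fasn and Srebf1 lower, with 69.3% of all genes called. The log2 fold change was 0.78 for Acaca (SE 0.07, edgeR adjusted p = 8.07e-10). For Srebf1 it was -0.38 (SE 0.12, edgeR adjusted p = 0.0118), with 38.3 to 48.5 CPM below the 51.6 to 57.3 CPM of Control. That call was lost without Ost_ASA replicate 1 (adjusted p = 0.0566) or Ost_ASA replicate 2 (adjusted p = 0.0517). For Fasn it was -0.21 (SE 0.08, edgeR adjusted p = 0.021), the libraries overlapped, and the call was lost without Control replicate 1 (adjusted p = 0.117), Ost_ASA replicate 1 (0.0772) or Ost_ASA replicate 2 (0.0854). Scd was at -0.51 (95% interval -1.12 to 0.11, edgeR adjusted p = 0.127), and passed with DESeq2 (adjusted p = 0.0377) and with only these groups in the model (edgeR adjusted p = 0.0305).

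Whether aspirin acted differently in the media was tested as an interaction. None of the 4 genes passed the edgeR test, where 2.83% of all genes were called, and DESeq2 called none. The unadjusted values of Fasn and Acaca, 0.0104 and 0.0232, were under 0.05 (edgeR adjusted p = 0.163 and 0.252). All 4 differences, the effect in adipogenic minus that in osteogenic medium, were positive, at 0.30 for Fasn (95% interval 0.08 to 0.53), 0.66 for Scd (-0.07 to 1.39, adjusted p = 0.428), 0.22 for Acaca (0.03 to 0.41) and 0.35 for Srebf1 (-0.003 to 0.70, adjusted p = 0.372). The median of all genes tested was -0.003. Deviations of the members from their group means went together in the adipogenic libraries (Pearson's r 0.723 to 0.961), so the 4 signs are not independent. That Fasn and Acaca passed in one medium only is thus no shown difference between media. For Fasn the difference passed without Adi replicate 3 (0.40, edgeR adjusted p = 0.0366) and on library totals (0.38, edgeR adjusted p = 0.0359). On library totals the median difference of all genes moved as well, to 0.07.

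**Figure D3:**
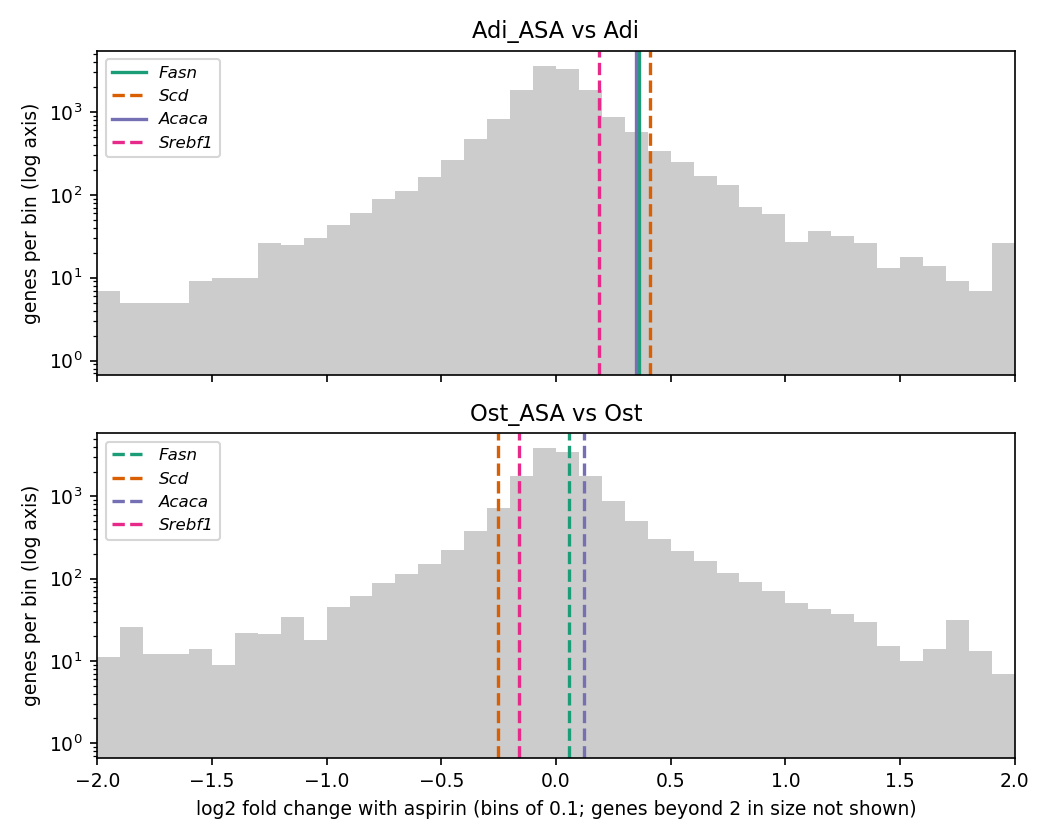
Distribution of log2 fold changes with aspirin over the 15543 genes tested (grey bars, bins of 0.1, log count axis) in adipogenic medium (top) and osteogenic medium (bottom), with the 4 genes as vertical lines, solid where the adjusted p was under 0.05 and dashed otherwise. In adipogenic medium all 4 lines lie right of 0, from 0.19 to 0.41, and in osteogenic medium they lie on both sides, from -0.25 to 0.12.

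The order of the 5 groups differed between genes. For Fasn it was Adi_ASA, Adi, Control, Ost_ASA, Ost, and of the neighbours only Ost_ASA and Ost did not differ beyond their spread (edgeR adjusted p = 0.814). For Scd and Srebf1 it was Adi_ASA, Adi, Control, Ost, Ost_ASA, and of the neighbours only Adi and Control differed. For Acaca it was Adi_ASA, Ost_ASA, Adi, Ost, Control. Its ends were separate, since Adi_ASA was above Ost_ASA (edgeR adjusted p = 0.000146) and Ost above Control (adjusted p = 1.38e-08), while the middle neighbours did not pass (Ost_ASA against Adi, adjusted p = 0.753, and Adi against Ost, adjusted p = 0.182). On library totals without TMM factors the order of Acaca changed in 2 places, and those of the other genes did not.

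Ratios of counts within a library need no scaling factor, and gene length cancels when a ratio is compared between groups. No test was run on them, and a gap between groups is given as description only. An exact permutation test of 3 against 3 libraries cannot give a two-sided p under 0.1. There were 0.109 ± 0.0181 Scd reads for each Srebf1 read in Control (SD, n = 3) and 8.66 ± 0.876 in Adi. With aspirin the ratio was 9.87 to 10.7, above the 8.0 to 9.65 of Adi without overlap, and it was 0.0889 to 0.116 in Ost. Fasn went the other way, with 3.96 ± 0.111 reads per Srebf1 read in Control and 1.93 ± 0.16 in Adi, as Srebf1 rose more than Fasn did. With aspirin this ratio overlapped in adipogenic medium, at 1.82 to 2.12 in Adi and 2.05 to 2.27 in Adi_ASA. In osteogenic medium it did not overlap, at 3.80 to 3.85 in Ost and 4.17 to 4.64 in Ost_ASA, and neither gene passed the test there by itself. Scd over Fasn overlapped with and without aspirin in each medium, at 3.78 to 5.2 in Adi and 4.35 to 4.9 in Adi_ASA. Several ratios were looked at, and how often other gene pairs separate was not counted.

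Between the synthesis enzymes, Fasn reads per Acaca read separated the media. The ratio was 4.73 to 5.21 in Control, 5.64 to 6.09 in Adi and 5.58 to 6.28 in Adi_ASA. In Ost it was 2.50 to 2.73 and in Ost_ASA 2.32 to 2.77, below every library of the other groups. Libraries with and without aspirin overlapped in each medium. Acaca reads per Srebf1 read were 0.773 to 0.815 in Control, 0.305 to 0.359 in Adi, 0.326 to 0.396 in Adi_ASA, 1.39 to 1.54 in Ost and 1.51 to 2.00 in Ost_ASA.

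**Figure D4:**
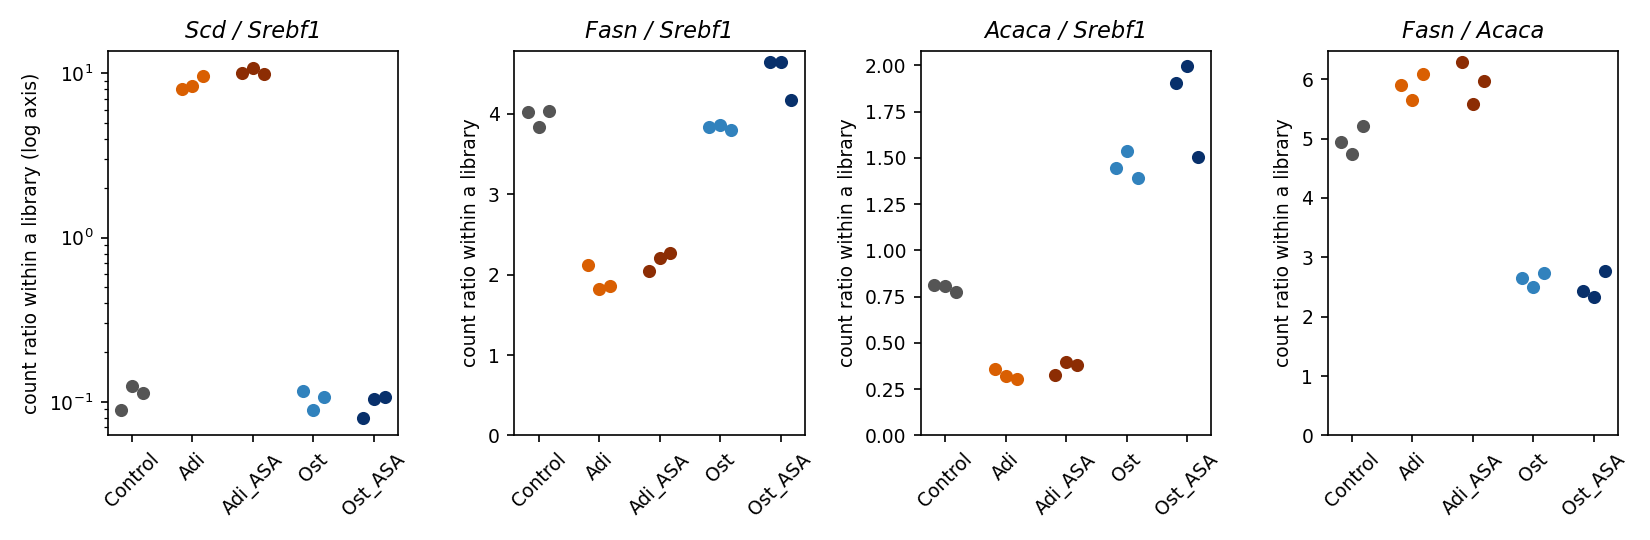
Ratio of read counts within each library for 4 gene pairs (points are libraries; log axis for Scd over Srebf1 only). Scd over Srebf1 is 8.0 to 10.7 in the adipogenic groups and 0.0799 to 0.124 in the others, and Fasn over Acaca is at most 2.77 in the osteogenic groups and at least 4.73 elsewhere.

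Across the group levels of the 15 libraries, Fasn, Scd and Srebf1 followed each other closely and Acaca less so. Pearson's r of log2 CPM was 0.994 between Scd and Srebf1, 0.988 between Fasn and Srebf1 and 0.978 between Fasn and Scd, against 0.544 to 0.582 for pairs with Acaca. These points share the 5 groups, and the high level in adipogenic medium sets most of each r. For Srebf1, Scd ranked as number 2 among the 15542 other genes by r and Fasn as number 20, while Acaca ranked 3899. For Scd, Srebf1 ranked 11, Fasn 69 and Acaca 3340, and for Fasn, Srebf1 ranked 3, Scd 36 and Acaca 3825. For Acaca, Scd ranked 1376, Fasn 1543 and Srebf1 1653. Genes outside the set thus had a higher r with each member than some of the other members did. After each group's mean was removed, the deviations of single libraries gave r of 0.887 between Fasn and Srebf1, 0.728 between Scd and Srebf1 and 0.526 between Fasn and Scd. With Acaca it was 0.618 for Fasn, 0.482 for Srebf1 and 0.137 for Scd. Within the 6 adipogenic libraries alone the centred r was 0.961 between Scd and Srebf1 and 0.723 to 0.896 for the other pairs. An adipogenic library that was high for one of these genes within its group tended to be high for the others, as Adi replicate 3 was for all 4 genes and Adi_ASA replicate 1 for Fasn, Scd and Srebf1. Acaca was highest in Adi_ASA replicate 2, at 97.5 CPM. The centred r of other gene pairs in these 6 libraries was not computed, so no background is given.

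The genes of the most similar pattern were found by the highest Pearson's r with each member over the same 15 libraries, with the members left out. For Scd this was ENSRNOG00000001001 (r = 0.998), at 0.0633 ± 0.0731 CPM in Control, 90.7 ± 15.1 CPM in Adi, 152 ± 8.88 CPM in Adi_ASA and 0 counts in Ost and Ost_ASA. For Srebf1 it was ENSRNOG00000007990 (r = 0.995), at 32.1 ± 2.29 CPM in Control, 60.0 ± 3.72 CPM in Adi, 65.8 ± 0.497 CPM in Adi_ASA, 29.8 ± 0.487 CPM in Ost and 27.6 ± 0.257 CPM in Ost_ASA. The highest r was 0.991 for Fasn and 0.967 for Acaca. The gene nearest Fasn had very low levels, at 0.0867 ± 0.0683 CPM in Control, 3.24 ± 0.482 CPM in Adi and 5.98 ± 0.226 CPM in Adi_ASA. It had 0 counts in Ost and Ost_ASA, so a high r here does not mean a change of the same size as that of Fasn. The count table holds identifiers without symbols, so the genes nearest Scd and Srebf1 are given by identifier only. Other genes of the pathway and markers of cell types, which had been listed by symbol, were not analysed here, and the labelled cell type was not checked against its markers.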

How the data were processed

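The authors deposited 1 table of raw read counts per gene, whole numbers without normalisation, with 34480 rows and a column for each of 15 libraries, matched to samples by title. The submitters' processing notes name HISAT2 2.0.4, HTSeq 0.9.1, DESeq 1.18.0 and build Rnor_6.0, and the sources used here give neither their roles nor strand setting or annotation. The definition of the gene set paired the 4 identifiers with symbols. The rule for the members uses no measured value, but the gene set, the lists and the tests were proposed with earlier results of these data known.

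The test was edgeR 4.0.16 (R 4.3.3). After filterByExpr (15543 genes, at least 99.94% of reads) and TMM scaling, all 15 libraries entered 1 robust quasi-likelihood model of group means, with 9 comparisons and Benjamini-Hochberg adjustment over all genes tested, at 0.05. The standard error is the log2 fold change over the square root of F, and 95% intervals are unadjusted. Correlations used log2 CPM with a prior count of 2. Members had 823 or more reads per library except Scd outside adipogenic medium (69 to 137). Replicate pairs all varied beyond counting error (lowest chi-square per degree of freedom 5.41), so none was merged. Alternatives were RLE factors, DESeq2 1.42.0, no filter, only the groups compared, a replicate block, leaving out each library and, added later, library totals. Named genes were the members and the gene most correlated with each, of which 2 are printed. The model was tested on simulated data with the same spread beyond counting error for every gene and changes only in Adi_ASA. That test does not cover unequal spread, such as that of Scd in Adi and Adi_ASA. Lists given by symbol were not run.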

Additional observations from a re-analysis of the deposited data

How the results depend on the processing

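The 36 log2 fold changes (4 genes in 9 comparisons) were recomputed under 456 combinations of result and alternative. In 444 the direction of called values and the side of the threshold were the same, in 6 a call was lost, in 6 one was gained, and none of the called values reversed. The rise of Fasn with aspirin in adipogenic medium ranged from 0.31 to 0.45 when single libraries were left out, and that of Scd from 0.27 to 0.63. The difference of the aspirin effects for Fasn ranged from 0.25 to 0.40 in the same way. It was 0.38 on library totals, where it passed and the median of all genes moved to 0.07. The Ost minus Control value of Srebf1 was -0.22 with only these groups in the model, where it passed. The cause of these changes was not tested. Replicate numbers did not go together (correlation of same-numbered deviations -0.075 to 0.044 over 30 pairs of libraries), and with a replicate block Fasn rose by 0.36 and Acaca by 0.35 with aspirin in adipogenic medium, with no call of the 4 genes changed in any comparison. Library totals moved the median of all genes by more than TMM did, to -0.20 for Adi minus Control, -0.15 for Adi minus Ost and -0.14 for Adi_ASA minus Control, so values on that scale are read relative to it. The higher calls among all calls were then 2168 of 8484 (TMM 3810 of 7603) for Adi minus Control, 4106 of 10546 (5129 of 10336) for Adi minus Ost, 2304 of 7513 (3502 of 6899) for Adi_ASA minus Control, 753 of 921 (387 of 675) for aspirin in adipogenic medium and 402 of 586 (186 of 440) for the difference of aspirin effects. Scd had the fewest reads, in Control and osteogenic medium (69 to 137), and the widest intervals there. With only the groups compared in the model, its SE went from 0.27 to 0.16 for Ost minus Control. For Ost_ASA minus Ost it went from 0.29 to 0.19. What sets the width of these intervals was not tested.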
